A study of Mus musculus with 2 samples.

Results

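The 6 genes of endothelin signalling and its Hand targets were followed through both libraries of the series. They are the ligand gene Edn1, the processing enzyme gene Ece1, the receptor genes Ednra and Ednrb, and the transcription factor genes Hand1 and Hand2. They were chosen by symbol, and all 6 were found among the 31053 genes listed for E9.5 and the 27998 listed for E12.0. The study sampled the mouse mandibular arch at 2 ages, both from K14Cre;R26mT/mG embryos, which carry a Keratin 14-driven Cre and a reporter that turns from membrane tomato to membrane GFP after recombination. At E9.5, whole arches of 8 pooled embryos were dissociated and sequenced unsorted, so that surface epithelium, endoderm, mesenchyme, mesoderm and blood cells could all enter. At E12.0, epithelium of 6 pooled littermates was peeled off after Dispase digestion and sorted for GFP, which limits that library to cells in which the transgene had been active. Each age is 1 library of pooled embryos, with no treatment and no replicate, so no test between ages or cell classes was possible and every interval given covers counting error only.

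Endothelin 1 is made as a precursor that is cut by proteases of the furin family and then by endothelin-converting enzyme 1, the product of Ece1, before it can bind its receptor. In the pharyngeal arches the peptide is known to come from epithelium and core mesoderm and to act on cranial neural crest cells through the G protein-coupled receptor encoded by Ednra, where it sets ventral (mandibular) identity by way of Dlx5, Dlx6 and Hand2. Ednrb, the other receptor, binds all endothelins and is best known from melanoblasts and enteric crest, and Hand1 and Hand2 are basic helix-loop-helix factors that bind E-box sequences and are also required in the heart.

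After cells with 200 to 5500 genes and at most 10% mitochondrial counts were kept, 12744 cells with 166191431 unique molecular identifiers (UMIs, each standing for 1 captured transcript) remained at E9.5 and 11355 cells with 77936364 UMIs at E12.0. The median was 13460.5 UMIs per cell at E9.5 and 6349 at E12.0. The libraries share 51 barcode sequences, 44 of them among kept cells. Levels are given as CPM, the gene's UMIs in the summed cells scaled to 1000000 UMIs in all, with exact 95% Poisson intervals. The UMIs come from transcript 3′ ends, and levels are compared between cells for 1 gene at a time.

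At E9.5, cells were placed by UMIs of fixed marker genes. Epithelium was gated by Epcam (at least 1 UMI), crest mesenchyme by Twist1 and Prrx1 together (at least 2), mesoderm core by Tbx1, Msc and Tcf21 (at least 3), and endothelium by Cdh5, Pecam1 and Kdr (at least 2). The 3153 cells that met more than 1 gate were put in no class, and 1417 cells met none. This left 3294 epithelial, 4221 crest mesenchyme, 385 mesoderm core and 264 endothelial cells. Some markers outside the gates followed the class names. Cldn6 was at 144 CPM in epithelium and at most 5.34 CPM in the other 3 classes, Pdgfra at 50.6 CPM in crest mesenchyme against at most 3.01, Myf5 at 12.3 CPM in mesoderm core against at most 0.281, and Esam at 256 CPM in endothelium against at most 1.68. Others did not. Musk, also listed for mesoderm core, had no UMI there. Twist2, listed for crest mesenchyme, was raised by the criterion given below in mesoderm core and not in crest mesenchyme. Cells that met a further gate on early crest genes were treated in the same way, and that gate was not used as a class.

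The ligand gene was shared by epithelium and mesoderm core, and was scarce in the crest-derived cells between them. Edn1 (chr13:42301476-42307990, plus strand, GRCm38) reached 81.8 CPM in epithelium (interval 79.0 to 84.7) and 85.7 CPM in mesoderm core (77.5 to 94.5), and the ratio of these 2 levels, 0.955, had an interval of 0.860 to 1.06. Endothelium had 17.7 CPM (13.6 to 22.6) and crest mesenchyme 3.92 CPM (3.42 to 4.47). Epithelium was thus 20.9-fold above crest mesenchyme (interval 18.2 to 24.0), and mesoderm core 21.9-fold (18.5 to 25.9). An Edn1 UMI was found in 43.9% of epithelial cells, 54.8% of mesoderm core cells, 13.6% of endothelial cells and 4.07% of crest cells. When every cell was thinned to 4100 UMIs these shares were 24.5%, 28.7%, 5.98% and 2.05%. In a cluster of 77 cells led by haemoglobin genes, which should lack Edn1, 3.90% of cells had a UMI, with a median depth of 17016 UMIs against 11731.5 in epithelium and 14409 in crest mesenchyme. The crest share is close to that of this cluster (interval 0.811 to 10.97%) and is not read as expression. The shares in epithelium and mesoderm core lie above it. This cluster is not a clean background, as 8 of its cells were in the epithelial class and 7 in crest mesenchyme. Those 8 cells held 2 of its 5 Edn1 UMIs. Of the 224 Edn1 UMIs in crest mesenchyme, 36.6% came from a cluster led by Ttn, Acta2 and Tnni1 and 16.1% from one led by Tbx1, Tcf21 and Lhx2, with 182 and 45 of the cells. Without 4 clusters named below, the levels were 83.6 CPM in epithelium and 2.54 CPM in crest mesenchyme. With cells allowed in several classes they were 60.6 and 11.5 CPM.

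A gene was called raised in a class when its CPM in the class was 2-fold or more that in the remaining kept cells and 5% or more of the class had a UMI, among the 12977 genes with 100 or more UMIs. Of the 6 members, only Edn1 was raised in epithelium (log2 ratio 2.34, interval 2.26 to 2.42), where 7.70% of all genes tested were. Edn1 was also the only member raised in mesoderm core (log2 ratio 1.5, interval 1.35 to 1.65), against 3.60% of all genes.

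**Figure D1:**
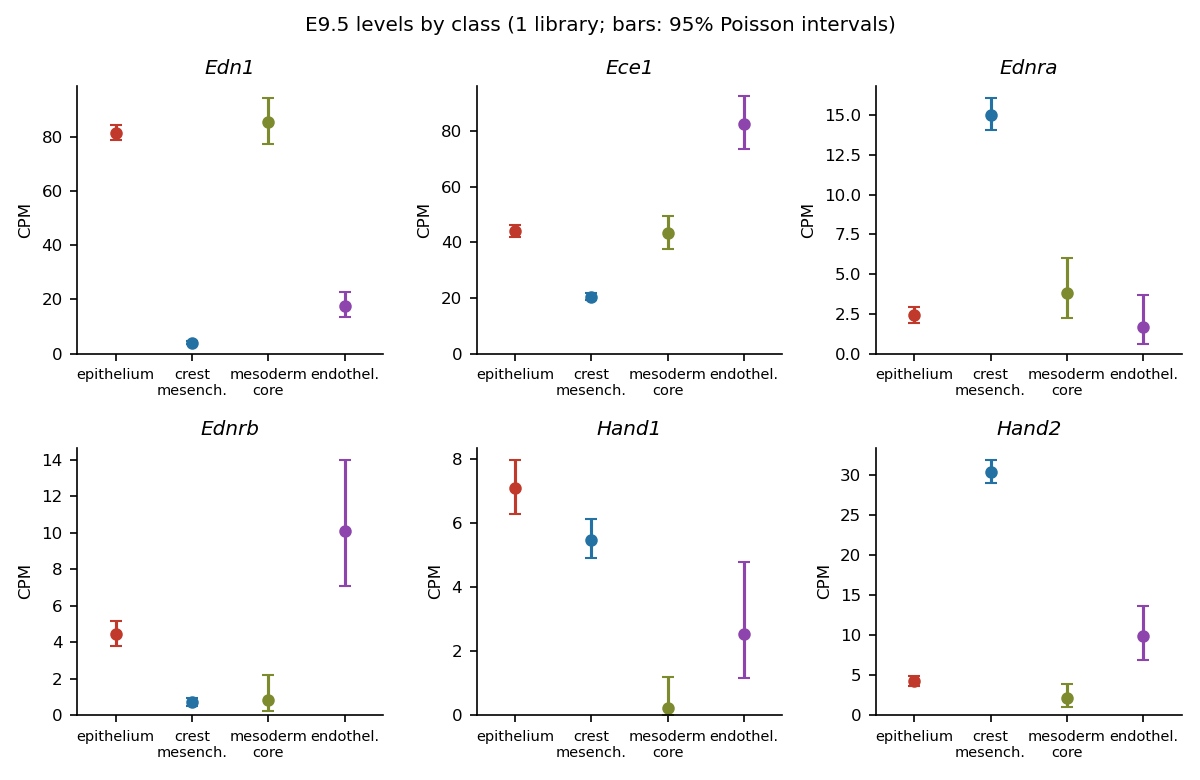
CPM of each member (y axes, linear, each from 0) in the 4 E9.5 classes (x axes), with points for summed UMIs of 1 library and bars for 95% Poisson intervals. Edn1 is high in epithelium (81.8 CPM) and mesoderm core (85.7 CPM), Ednra and Hand2 are highest in crest mesenchyme (15.04 and 30.5 CPM), and Ece1 and Ednrb in endothelium (82.6 and 10.1 CPM).

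Within epithelium Edn1 was broad among the larger deep clusters. Clusters were built without the listed genes and stay unnamed. In the 5 largest deep clusters in which most cells were of the epithelial class, Edn1 ranged from 69.6 CPM in the cluster led by Pax1, Uchl1 and Pax9 to 91.5 CPM in the cluster led by Pitx1, Foxe1 and Cd59a. A smaller difference was seen on splitting the class by the endoderm genes Foxa2 and Pax1. The 452 cells with a UMI of either had 73.0 CPM of Edn1 (66.3 to 80.2), and the 2842 cells without had 83.4 CPM (80.3 to 86.5). A shallow cluster of 744 cells led by Mt2, Ccdc68 and Krt8, with a median of 3427.5 UMIs, had 39.5 CPM of Edn1 (32.6 to 47.5). It gave 281 cells to the epithelial class, 8.53% of it, and 2.26% of the Edn1 UMIs of the class. Edn1 was low in the other 2 deep clusters with most cells in that class. A cluster of 131 cells led by Hand1, Col1a1 and Ahnak, described below, gave 91 cells to the class and had 4.43 CPM (1.63 to 9.64). The other was a cluster of 40 cells led by the neuronal genes Neurod1, Neurog1 and Tubb3, 62.5% of which fell in the epithelial class, where Edn1 gave 1 UMI in all (1.93 CPM, interval 0.0488 to 10.7). Outside epithelium and mesoderm, the 30 cells led by Gja4, Stmn2 and Sat1, which also hold the arterial gene Gja5 (271 CPM), had 100.9 CPM of Edn1 (70.3 to 140). That cluster supplied 42.9% of the Edn1 UMIs of the endothelial class from 8.33% of its cells.

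Edn3, the ligand of Ednrb in crest-derived pigment and gut neurons, was also higher in epithelium and mesoderm core than in the other classes. Its level was 25.6 CPM in epithelium (24.1 to 27.2), 18.5 CPM in mesoderm core (14.8 to 22.8), 1.28 CPM in crest mesenchyme and 0.843 CPM in endothelium, and it was raised in the first 2. Unlike Edn1 it stayed high in the Neurod1 and Neurog1 cluster, at 46.3 CPM (29.6 to 68.8), and was uneven across epithelium, from 9.49 CPM in the cluster led by Pitx1 and Foxe1 to 48.0 CPM in that led by Wnt6, Sostdc1 and Slc2a3 among the 5 largest deep clusters, with 6.64 CPM (3.04 to 12.6) in the Hand1-led cluster. Edn2, the remaining ligand gene, gave 1 UMI in the whole E9.5 library.

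The converting enzyme gene was found in every class. Ece1 (chr4:137862237-137965229, plus strand) was at 82.6 CPM in endothelium (73.4 to 92.6), 44.0 CPM in epithelium (41.9 to 46.1), 43.3 CPM in mesoderm core (37.5 to 49.6) and 20.4 CPM in crest mesenchyme (19.3 to 21.6). Epithelium and mesoderm core did not differ beyond counting error (ratio 1.02, interval 0.879 to 1.18), while endothelium was 1.88-fold above epithelium (1.65 to 2.13) and 4.05-fold above crest mesenchyme (3.55 to 4.60). The haemoglobin-led cluster had 11.4 CPM (6.24 to 19.1), so the crest level lies less than 2-fold above that of this cluster. Of its 14 Ece1 UMIs, 4 came from its epithelial-class cells and 3 from its crest-class cells, so its level may overstate the background. Ece1 was raised in endothelium (log2 ratio 1.46, interval 1.29 to 1.63), and so was Ednrb (below), making 2 of the 6 members against 8.66% of all genes. Among the other processing genes, Furin was raised in epithelium (13.0 CPM) and endothelium (15.7 CPM), and Mme, which encodes the peptidase neprilysin, in epithelium (11.2 CPM).

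Of the receptor genes, Ednra was highest in crest mesenchyme and Ednrb in endothelium. Ednra (chr8:77663031-77724464, minus strand) was at 15.04 CPM in crest mesenchyme (14.1 to 16.1), 3.82 CPM in mesoderm core (2.26 to 6.03), 2.41 CPM in epithelium (1.95 to 2.94) and 1.69 CPM in endothelium (0.619 to 3.67). Crest mesenchyme was 6.25-fold above epithelium (5.05 to 7.81), 3.94-fold above mesoderm core (2.48 to 6.68) and 8.92-fold above endothelium (4.08 to 24.4), and the lower 3 had overlapping intervals. Against all other kept cells, which include the crest cells that met a further gate, the excess was 1.73-fold, so Ednra did not meet the criterion. It met it when cells were allowed in several classes, with 15.03 CPM in crest mesenchyme and 6.20 CPM in epithelium. A UMI was found in 17.7% of crest cells (5.91% thinned) and in 2.76% of epithelial cells (1.04% thinned), against 0 of 77 cells in the haemoglobin-led cluster, which allows a share of up to 3.90%.

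Ednra was not even among the clusters that held cells of the crest mesenchyme class. The 157 cells led by Fst, Tagln and Foxd1, which also hold Foxc2 and Tbx18, had 40.3 CPM (32.7 to 49.1). A UMI was found in 43.3% of them. This was about 2 times or more the 14.01 to 19.1 CPM of the 3 large deep crest clusters. Of these 157 cells, 54.8% were in the crest mesenchyme class, and whether they derive from crest was not tested. The 607 cells with 2 or more Sox10 UMIs, a gene of early migratory and glial crest, had 21.7 CPM (19.1 to 24.6). Cells of the crest gate with no Sox10 UMI and no Epcam UMI had 14.6 CPM (13.6 to 15.6). Cells with Epcam were not left out of the Sox10 group, so the 2 groups were not chosen alike.

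Ednrb (chr14:103814625-103844402, minus strand) was low in all 4 classes. Endothelium had 10.1 CPM (7.08 to 14.002), epithelium 4.43 CPM (3.80 to 5.14), mesoderm core 0.848 CPM (0.231 to 2.17) and crest mesenchyme 0.6996 CPM (0.500 to 0.953). It was raised in endothelium (log2 ratio 2.16, interval 1.62 to 2.66), with a UMI in 10.6% of cells. In epithelium its log2 ratio was 1.29 (1.00 to 1.58), but 4.64% of cells had a UMI, short of the required share. The Sox10 cells had 3.55 CPM (2.54 to 4.81), against 0.884 CPM (0.662 to 1.16) in crest-gated cells with no Sox10 or Epcam UMI. Only the latter group left out cells with Epcam, and how far this widens the difference was not tested. Its highest level in the library, 76.0 CPM (62.1 to 92.2), was in a cluster of 131 cells led by Hand1, Col1a1 and Ahnak that is described with Hand1. That cluster gave 32.6% of the Ednrb UMIs of the epithelial class from 2.76% of its cells. Without the 4 clusters named below, epithelium had 3.06 CPM of Ednrb (2.54 to 3.67).

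**Figure D2:**
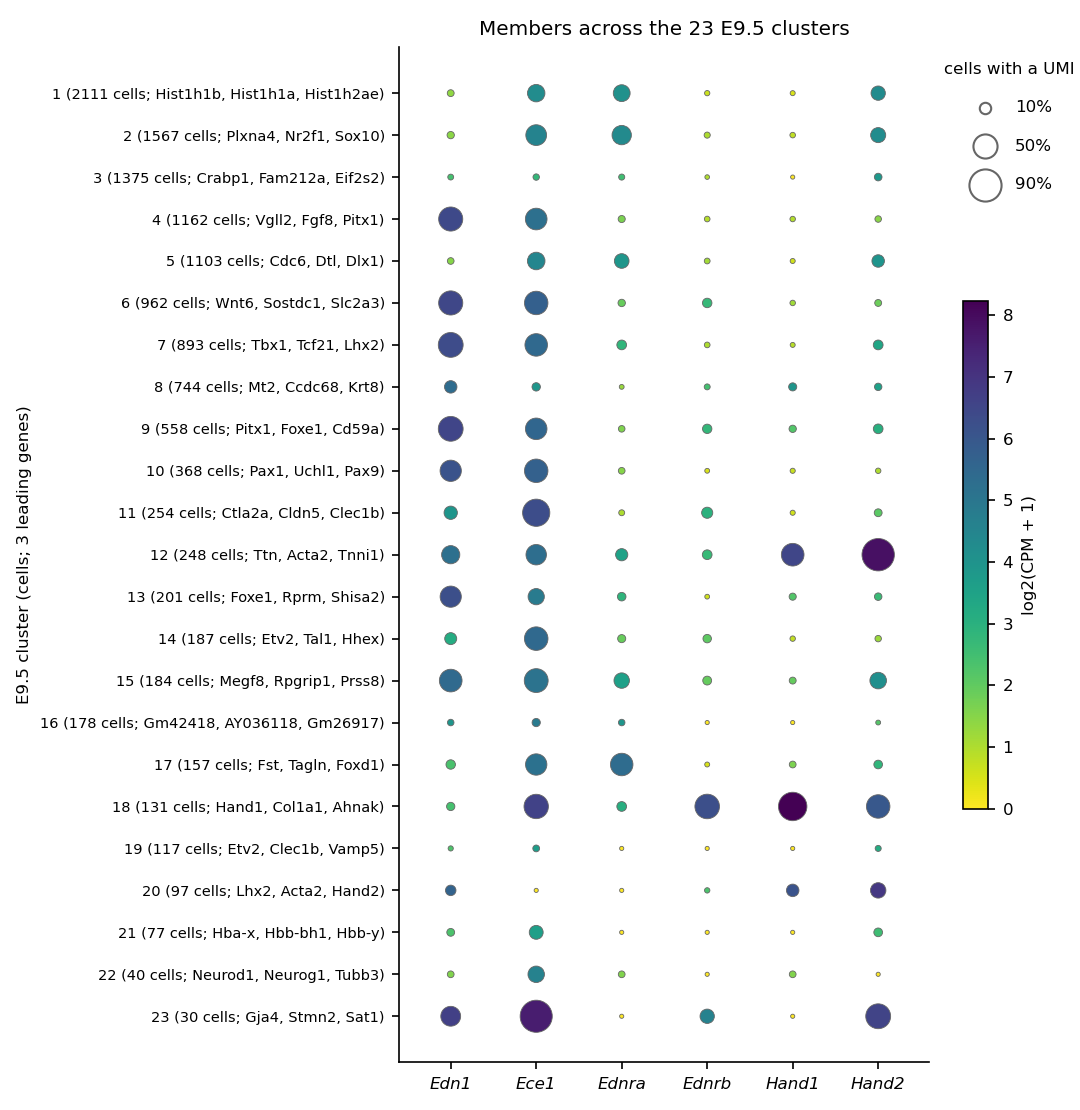
The 6 members (columns) in the 23 E9.5 clusters (rows, with cell numbers and 3 leading genes), with colour for log2(CPM + 1) and dot area for the share of cells with a UMI. Edn1 is high in the largest deep epithelial clusters and in the Tbx1 and Tcf21 cluster. It is lower in cluster 8 (39.5 CPM) and low in clusters 18 and 22 (4.43 and 1.93 CPM). Ednra peaks in cluster 17. Hand1 is highest in clusters 18 and 12, Hand2 in cluster 12 and Ednrb in cluster 18.

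Hand2 (chr8:57320983-57324633, plus strand) was a crest gene by class. It was at 30.5 CPM in crest mesenchyme (29.1 to 31.9), 9.83 CPM in endothelium (6.85 to 13.7), 4.23 CPM in epithelium (3.61 to 4.92) and 2.12 CPM in mesoderm core (1.02 to 3.90). The haemoglobin-led cluster had 4.89 CPM (1.79 to 10.6). Of its 6 Hand2 UMIs, 4 came from its crest-class cells and 1 from its epithelial-class cells. Its level therefore does not show whether the low values in epithelium and mesoderm core are background. Crest mesenchyme was 7.203-fold above epithelium (6.14 to 8.49), and Hand2 was the only member raised there (log2 ratio 1.64, interval 1.52 to 1.75), where 0.516% of all genes were. When cells were allowed in several classes, the levels were closer, 22.3 CPM in crest mesenchyme (21.4 to 23.2) and 10.1 CPM in epithelium (9.38 to 10.9). A UMI was found in 19.0% of crest cells (9.26% thinned) against 5.19% of the haemoglobin-led cells.

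The level was unevenly spread. The 3 large deep crest clusters had 14.9 to 18.6 CPM, while a cluster of 248 cells led by Ttn, Acta2 and Tnni1 had 239 CPM (223 to 257) and a UMI in 91.5% of cells. These cells met the crest gate in 73.4% of cases and held the heart muscle transcript Tnnt2 at 146 CPM, against 0.993 CPM in all other cells, and the cardiac factor Nkx2-5 at 78.8 against 14.02 CPM. They made up 4.31% of the crest class and supplied 31.3% of its Hand2 UMIs and 67.8% of its Hand1 UMIs. With this cluster and 3 others left out, namely the Hand1-led one, a shallow one led by Lhx2, Acta2 and Hand2, and one in which 86.4% of cells were called doublets, crest mesenchyme kept 21.3 CPM of Hand2 (20.1 to 22.5), and Hand2 was still raised. These clusters were chosen after the values were seen.

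Within the crest, Hand2 and Sox10 seldom met. The 607 Sox10 cells had 3.46 CPM of Hand2 (2.47 to 4.71), against 29.6 CPM (28.3 to 31.1) in crest-gated cells with no Sox10 or Epcam UMI. The same crest-gated cells without the 4 clusters had 20.9 CPM (19.7 to 22.1). The Sox10 cells were the deeper ones, with a median of 18848 UMIs against 14524.5. Twist1 was at 716 CPM in the Sox10 cells and 663 CPM in the crest-gated cells. It is part of the gate that chose the latter, so its level there does not show that the groups are alike. Hand2 was lower in the Sox10 cells but not absent, with a UMI in 5.11% of them. Ednra was not lower there, at 21.7 CPM against 14.6 CPM.

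Hand1 (chr11:57828705-57832818, minus strand) was raised in no class. It was at 7.09 CPM in epithelium (6.29 to 7.97), 5.49 CPM in crest mesenchyme (4.90 to 6.13), 2.53 CPM in endothelium (1.16 to 4.80) and 0.212 CPM in mesoderm core (0.00537 to 1.18). Of its UMIs in all kept cells, 45.6% lay in the cluster led by Hand1, Col1a1 and Ahnak and 32.0% in the Ttn-led cluster. The 131 cells of the Hand1-led cluster had 299.7 CPM (271 to 330) with a UMI in 70.2% of cells, and supplied 73.6% of the Hand1 UMIs of the epithelial class from 2.76% of its cells. It had Epcam at 313 CPM and Krt8 at 1780 CPM together with Col1a1 at 322 CPM and Plac8 at 161 CPM. The Ttn-led cluster came next with 91.3 CPM (81.0 to 102). Without the 4 clusters, Hand1 was 0.677 CPM in crest mesenchyme (0.477 to 0.933) and 1.74 CPM in epithelium (1.35 to 2.21).

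The Hand genes were seen together in 190 cells, of which 103 were in the Ttn-led cluster and 49 in the Hand1-led one. In the Ttn-led cluster 103 of the 109 cells with Hand1 also had Hand2, as did 227 of all its 248 cells. In the 3 large crest clusters, 2 of 15, 8 of 19 and 0 of 8 cells with Hand1 also had Hand2. Of all cells in these clusters, 16.6%, 18.6% and 12.3% had Hand2. The Hand1-led cluster also had 63.5 CPM of Hand2 (50.8 to 78.4) and 96.7 CPM of Ece1 (80.9 to 115). The Gja4-led cells had the highest Ece1 in the library, 190 CPM (147 to 242), and 95.1 CPM of Hand2 (65.5 to 134) with no Hand1 UMI. They gave 74.3% of the Hand2 UMIs of the endothelial class.

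The promoter windows of 5 of the 6 members were found in the RefSeq table for GRCm38.p6, from 250 bases before to 50 after the gene start, and Hand1 had no entry. Shown are the windows of the 2 ligand genes raised in epithelium and mesoderm core and of the 2 members whose level was highest in crest mesenchyme. They were picked by these levels, and signalling between the cells was not measured. They lie at chr13:42301226-42301525 (plus strand) for Edn1, chr2:174760369-174760668 (plus) for Edn3, chr8:77724403-77724702 (minus) for Ednra and chr8:57320733-57321032 (plus) for Hand2. Capitals mark matches on either strand to the E-box CANNTG, the homeodomain core TAATTA, the GATA core GATAA, or TATAAA.
Edn1: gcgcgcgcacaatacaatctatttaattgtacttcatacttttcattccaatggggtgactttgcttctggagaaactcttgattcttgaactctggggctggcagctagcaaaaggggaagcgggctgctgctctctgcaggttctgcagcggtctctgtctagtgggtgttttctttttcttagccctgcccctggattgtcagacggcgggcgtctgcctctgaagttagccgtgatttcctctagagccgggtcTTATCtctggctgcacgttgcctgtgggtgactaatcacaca
Edn3: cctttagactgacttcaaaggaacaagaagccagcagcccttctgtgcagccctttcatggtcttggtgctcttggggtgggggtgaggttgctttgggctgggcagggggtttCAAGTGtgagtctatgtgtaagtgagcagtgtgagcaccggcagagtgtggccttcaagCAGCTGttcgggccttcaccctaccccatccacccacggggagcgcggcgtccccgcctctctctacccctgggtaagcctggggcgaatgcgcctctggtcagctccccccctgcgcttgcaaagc
Ednra: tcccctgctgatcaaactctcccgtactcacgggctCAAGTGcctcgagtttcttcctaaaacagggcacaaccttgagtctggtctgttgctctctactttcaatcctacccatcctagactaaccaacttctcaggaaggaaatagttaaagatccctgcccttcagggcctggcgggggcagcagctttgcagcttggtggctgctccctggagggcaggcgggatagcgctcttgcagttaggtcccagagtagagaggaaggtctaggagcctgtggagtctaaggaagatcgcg
Hand2: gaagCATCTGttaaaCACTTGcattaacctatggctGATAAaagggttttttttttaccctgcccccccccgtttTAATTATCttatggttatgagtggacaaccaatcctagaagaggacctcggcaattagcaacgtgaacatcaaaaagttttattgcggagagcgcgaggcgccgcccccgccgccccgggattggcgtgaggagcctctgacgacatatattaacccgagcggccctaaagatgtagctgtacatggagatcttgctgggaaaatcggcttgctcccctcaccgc

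Hand2 had 2 matches to CANNTG, 1 to TAATTA and 2 to GATAA, the TAATTA match overlapping a GATAA match on the other strand. Edn3 had 2 matches to CANNTG, Ednra 1, and Edn1 none, with 1 match to GATAA. None of the 4 held TATAAA. Of 32851 windows of this length, 72.3% held CANNTG, 25.4% GATAA, 13.6% TATAAA and 5.29% TAATTA, so the TAATTA match of Hand2 is the least common of those found. A match is a description of letters, not a binding site.

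Of 62 pathway genes listed for endothelin processing, reception and transduction, Hand partners and arch patterning, 54 had enough UMIs and 24 were raised in at least 1 class, as were 18.7% of all genes tested. In crest mesenchyme, 0.516% of all genes were raised. Of the listed genes, these were Hand2 and the distal genes Dlx5 (110 CPM), Dlx6 (63.5 CPM) and Msx2 (55.0 CPM). From the list of proximal or pan-arch genes they were Dlx1 (50.2 CPM), Dlx2 (58.2 CPM) and Barx1 (52.3 CPM). The median log2 ratio of the 12 tested distal genes there was 0.61 and that of the 12 tested proximal or pan-arch genes -0.19, with -0.12 over all genes. In epithelium, 7.70% of all genes were raised. Of the 12 distal genes 3 were, namely Bmp4 (13.5 CPM), Gsc (7.12 CPM) and Alx4 (4.76 CPM). Of the 12 proximal or pan-arch genes 2 were, the Notch ligand Jag1 (53.0 CPM) and Meis2 (524 CPM). The median ratios were -0.60 for the distal, -0.13 for the proximal or pan-arch and 0.11 for all genes.

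In mesoderm core, Twist2 (13.8 CPM) and Six2 (16.5 CPM) were among the genes raised beside the ligand genes, against 3.60% of all genes. Of the 14 tested transducers, none was raised in epithelium, crest mesenchyme or mesoderm core, and 3 were in endothelium (8.66% of all genes), the G protein subunit gene Gna12 (29.2 CPM) and the Mef2 factors Mef2a (182 CPM) and Mef2d (29.2 CPM). Their median log2 ratio was 0.37 in endothelium, with -0.13 over all genes, and 0.01 in crest mesenchyme.

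Which genes were found with Hand2 in the same crest cell was asked in 3214 crest mesenchyme cells thinned to 8000 UMIs, 495 of them with a Hand2 UMI. The share of cells with both genes was divided by the product of the 2 shares, so that 1 is the value for unrelated genes. The exact binomial interval lay above 1 for 7 of the 18 listed genes that were in at least 2% of cells, and for 9.42% of all 10023 genes detected in at least 2% of cells. These were Hand1 (ratio 4.76, interval 3.66 to 6.07), Bmp4 (4.46, 3.37 to 5.80), Msx2 (1.74, 1.55 to 1.95), Dlx3 (1.51, 1.12 to 1.99), Msx1 (1.49, 1.32 to 1.67), Jag1 (1.43, 1.07 to 1.88) and Barx1 (1.24, 1.03 to 1.49). It lay below 1 for 5 of the 18 and 3.59% of all genes. These were the receptor Ednra (0.699, 0.502 to 0.946), Dlx1 (0.691, 0.567 to 0.833), Dlx2 (0.743, 0.623 to 0.879) and the nuclear receptor genes Nr2f1 (0.737, 0.658 to 0.823) and Nr2f2 (0.715, 0.619 to 0.820). Dlx5 (1.04, 0.918 to 1.17) and Dlx6 (1.11, 0.958 to 1.27) had intervals that include 1.

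Much of this moved when the 4 clusters were left out. The ratio of Dlx5 was then 1.33 (1.17 to 1.5) and that of Dlx6 1.401 (1.21 to 1.62), with a Dlx5 UMI in 66.9% of Hand2 cells and 48.0% of the rest. Msx2 (1.92), Dlx3 (1.98), Msx1 (1.63) and Barx1 (1.57) were above 1. Hand1 and Bmp4 then had too few cells, Jag1 was 1.17 (0.780 to 1.69), and of the genes below 1 only Nr2f2 remained (0.843, 0.723 to 0.976). Ednra kept a ratio of 0.722, with an interval of 0.491 to 1.02.

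**Figure D3:**
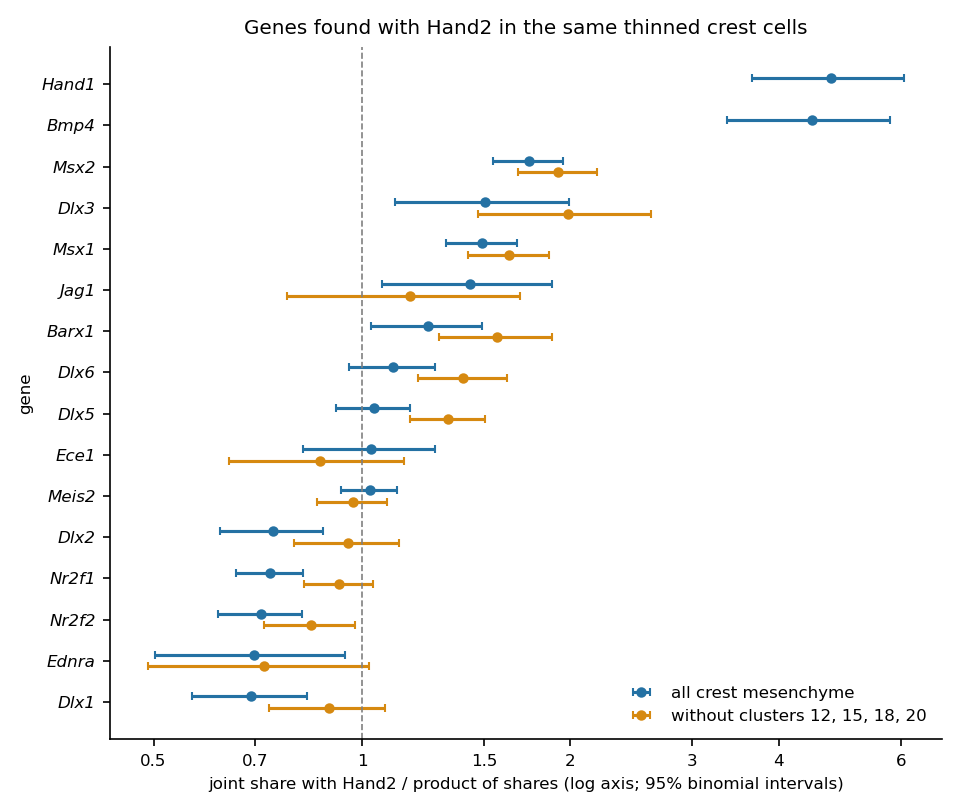
Ratio of the joint share to the product of shares with Hand2 (x axis, log scale, 95% binomial intervals) for 16 listed genes (y axis) in thinned crest mesenchyme cells, over the whole class (blue) and without clusters 12, 15, 18 and 20 (orange). Dlx5 and Dlx6 lie at 1.04 and 1.11 over the whole class and at 1.33 and 1.401 without the clusters, while Dlx1 and Dlx2 move from 0.691 and 0.743 to intervals that hold 1.

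Genes with the most similar profile across the 23 clusters were found by Pearson correlation of log2(CPM + 5) over 12680 genes. The clusters come from 1 library and differ in depth, and the values are a description. Edn1 was most like Nkx2-3 (r = 0.85), Gsta4 (0.84) and Ablim1 (0.83), Ece1 like Mprip (0.92), Fkbp2 (0.91) and Calu (0.91), and Ednra like L1cam (0.93), Mmp16 (0.93) and Ptx3 (0.91). Ednrb was most like Rnf144b (0.94), Hoxb7 (0.91) and Vsir (0.89), Hand1 like Dusp26 (0.98), Wnt2 (0.96) and Wt1 (0.96), and Hand2 like Tnni1 (0.89), Camk2a (0.88) and Mcub (0.86). Among the members the highest pair was Hand1 with Hand2 (0.69), and the lowest Edn1 with Ednra (-0.38).

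Between the epithelial cells of the 2 libraries, the ligand gene and its converting enzyme gene differed in opposite directions. Edn1 was at 81.8 CPM in the 3294 E9.5 epithelial cells and at 1.85 CPM (1.54 to 2.21) in the 9536 Epcam-positive cells at E12.0, 44.1-fold lower (log2 ratio -5.46, interval -5.73 to -5.21). The share of cells with a UMI was 24.5% at E9.5 and 0.799% at E12.0 after thinning. Ece1 was at 44.0 CPM at E9.5 and 94.4 CPM at E12.0 (92.1 to 96.7), 2.15-fold higher (log2 ratio 1.10, interval 1.03 to 1.18). These were the 2 of 6 members that differed at least 2-fold with a UMI in at least 5% of cells on the higher side, Edn1 among the 6.50% of 12612 genes that were higher at E9.5 and Ece1 among the 14.8% that were higher at E12.0. The E9.5 class leaves out cells that met another gate, which was not done at E12.0, and all 4816 Epcam-positive E9.5 cells had 60.6 CPM of Edn1. The libraries differ in sorting, digestion and depth, so age and library cannot be told apart.

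The remaining ligands shifted too. Edn3 was at 25.6 CPM at E9.5 and 7.52 CPM (6.88 to 8.20) at E12.0, while Edn2 had 0 UMIs in E9.5 epithelium, which allows up to 0.0760 CPM, and 4.56 CPM (4.07 to 5.10) at E12.0, at least 60.0-fold higher. Ednra (2.41 and 0.618 CPM) and Ednrb (4.43 and 2.88 CPM) were low in both. Hand1 had no UMI in the 9536 E12.0 cells, which allows up to 0.0441 CPM and a share of up to 0.0315% of cells. Against the whole E9.5 class, the exact interval of its log2 ratio ended at -7.02. Hand2 gave 4 UMIs (0.0589 CPM, 0.0160 to 0.151) against 4.23 CPM at E9.5. Without the 4 clusters named above, the E9.5 levels were 1.74 CPM for Hand1 and 2.88 CPM for Hand2. Ednrb was then at 3.06 CPM (2.54 to 3.67), which overlaps its E12.0 interval of 2.49 to 3.32.

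**Figure D4:**
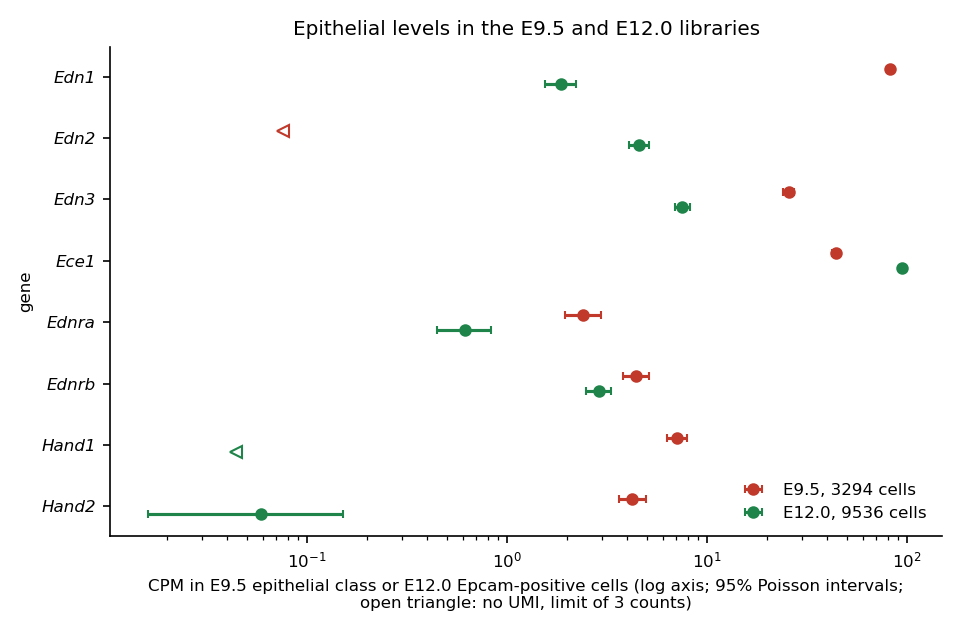
CPM (x axis, log scale, 95% Poisson intervals) of the members, Edn2 and Edn3 (y axis) in the E9.5 epithelial class (red) and the E12.0 Epcam-positive cells (green), with open triangles for the limit of 3 counts where no UMI was found. Edn1 stands at 81.8 CPM at E9.5 and 1.85 CPM at E12.0, Ece1 stands at 44.0 and 94.4 CPM, and Hand1 has no UMI at E12.0.

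In the E12.0 library, Ednrb stood out in cells with the homeobox gene Irx1. The 1617 Irx1 cells had 10.2 CPM of Ednrb from 135 UMIs, and the 9738 cells without had 1.45 CPM from 94 UMIs, a 7.02-fold difference (log2 ratio 2.81, interval 2.42 to 3.21). Ednrb was the only member raised in Irx1 cells, as were 0.854% of 12062 genes. A UMI was found in 6.12% of Irx1 cells and 0.873% of the others, and in 3.37% and 0.525% after thinning, with median depths of 7421 and 6197.5 UMIs. The level followed the Irx1 count, from 6.94 CPM (5.17 to 9.13) at 1 UMI to 12.5 CPM (9.46 to 16.3) at 2 to 3 UMIs and 19.8 CPM (13.2 to 28.7) at 4 or more. Of the other members, Edn1 was at 3.099 CPM in Irx1 cells and 1.53 CPM in the rest (log2 ratio 1.02, interval 0.46 to 1.56), and Ece1 at 82.5 and 94.98 CPM.

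Among the Irx1 cells, the Ednrb level differed by partner gene, with partners chosen after the values were seen. Irx1 cells with Fst, which encodes the activin inhibitor follistatin, had 17.5 CPM (14.4 to 21.1) and those without 3.71 CPM (2.42 to 5.44). Of 19 partner genes tried, 4 had intervals apart with more Ednrb in the cells that held them (Fst, Dock5, Enc1 and Isl1). Another 4 had intervals apart with less (Fgf8, Tfap2b, Timp3 and Cxcl14), and 11 had intervals that overlap. The same shares were not taken over all genes, so these counts cannot be judged as many or few. Irx1 cells with Dock5 had 22.4 CPM (16.7 to 29.4) against 7.61 CPM (6.06 to 9.43). The intervals overlapped for Slitrk6 (8.49 CPM with and 10.7 CPM without), Wasf1 (10.5 and 9.95 CPM), Flrt3 (10.004 and 10.4 CPM) and Ntrk2 (7.01 and 11.8 CPM). Less Ednrb was found with Fgf8 (3.09 against 13.2 CPM) and with the anterior marker Tfap2b (3.82 against 12.4 CPM). Part of this was shared by cells without Irx1, at lower levels. There, Fst cells had 2.69 CPM (1.77 to 3.91) against 1.23 CPM (0.950 to 1.56). Dock5 cells had 4.40 CPM (2.11 to 8.09) against 1.35 CPM (1.07 to 1.67). Intervals there were also apart, higher with the gene, for Enc1 and Flrt3. They overlapped for Isl1, Timp3, Fgf8, Tfap2b and Cxcl14. Most of the 184 cells with Ednrb held a single UMI, 150 in all. Pigment cells express Ednrb. The melanoblast gene Dct had no UMI in these 184 cells and Sox10, Pmel and Mitf had 1, 1 and 3 UMIs. Krt14 was at 665 CPM against 680 CPM in the other cells. Mitf was found in 1.63% of the cells with Ednrb and 1.62% of the others, and Dct in 0.107% of the others. The library was sorted for Keratin 14-driven GFP, so these genes can tell little about the source of the Ednrb UMIs.

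E12.0 cells were also sorted into classes by Irx1, by Tfap2b (anterior, at least 2 UMIs), by Col14a1 and Zcchc5 (posterior, at least 1), by Grhl3 and Pkp1 (periderm, at least 2) and by Shh and Dkk4 (initiation knot, at least 2), with cells of 2 gates left out. Ece1 was at 194 CPM in periderm (168 to 222), 144 CPM in posterior (134 to 154), 75.0 CPM in Irx1 (69.4 to 80.9), 70.4 CPM in anterior (67.5 to 73.5) and 27.1 CPM in initiation knot cells (16.5 to 41.8), the Irx1 and anterior intervals overlapping. Edn3 and Edn2 were highest in anterior cells, at 14.4 CPM (13.1 to 15.8) and 8.82 CPM (7.80 to 9.94), with Edn3 at 4.06 CPM or less in the other 4 classes and Edn2 at 1.84 CPM or less. Ednrb was at 13.2 CPM in the Irx1 class (10.9 to 15.7) and at 1.34 CPM or less in anterior, posterior and periderm cells. The other 4 classes leave out all cells with an Irx1 UMI, so this repeats the contrast by Irx1 above. Neither Ednrb nor Edn2 had a UMI in the 110 initiation knot cells, which allows up to 4.06 CPM of each. All 288 cells that met that gate had 1.75 CPM of Ednrb (0.477 to 4.48), from 4 UMIs. Irx1 cells with a Shh UMI had 9.37 CPM (4.99 to 16.0), against 10.3 CPM in those without. Ednra reached 6.77 CPM (2.20 to 15.8) in initiation knot cells, from 5 UMIs.

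**Figure D5:**
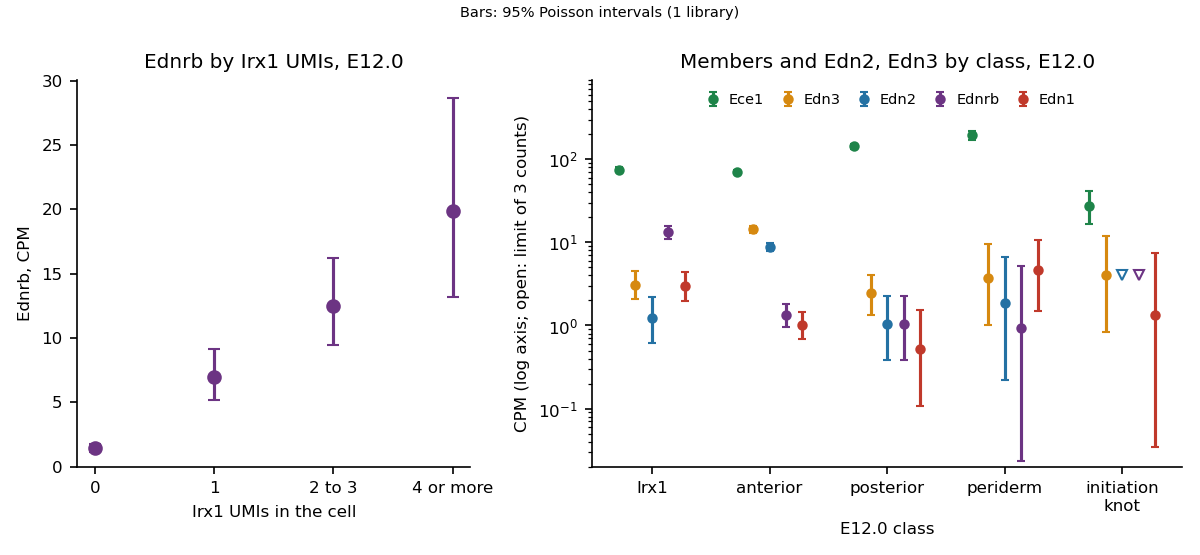
Left, Ednrb CPM (y axis, linear) by the number of Irx1 UMIs in the E12.0 cell, and right, CPM (y axis, log scale) of Ece1, Edn3, Edn2, Ednrb and Edn1 in 5 E12.0 classes, with 95% Poisson intervals and open triangles for the limit of 3 counts. Ednrb goes from 1.45 CPM without Irx1 to 19.8 CPM at 4 or more Irx1 UMIs, Edn3 and Edn2 are highest in anterior cells and Ece1 in periderm.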

How the data were processed

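Mandibular arch cells were measured in 1 library per age, and the authors deposited UMI counts per gene and barcode without normalization, after cell calling. Per the labels and the study's methods the reads were processed with Cell Ranger 2.0.0 on GRCm38 (mm10), whereas the matrix headers name versions 3.1.0 (E12.0) and 6.1.2 (E9.5). The 2 gene lists share 27514 genes. Filters removed 1549 E9.5 and 308 E12.0 barcodes.

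UMIs were summed per class and compared as CPM with scipy 1.17.1, numpy 2.4.6 and pandas 2.3.3 under Python 3.11.15. Intervals were exact: Poisson for levels, conditional for ratios, Clopper-Pearson for shares. A level with no UMI was bounded by 3 counts. Shares were also taken after thinning cells to 4100 UMIs, which left out 1759 E9.5 and 1024 E12.0 cells. Doublets were called by Scrublet in scanpy 1.11.5 (331 at E9.5, 661 at E12.0) and kept. E9.5 clusters came from 3000 variable genes less 33 listed ones, 30 principal components, 20 neighbours and Leiden resolution 1 (leidenalg 0.10.2). Leading genes are the 10 with the largest fold among those in at least 15% of a cluster's cells. The steps were tested on simulated data.

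The members and gene lists were chosen with earlier results of these data known. The genes named were the 6 members, the listed genes raised in a class, all ligand, processing and receptor genes, and the 3 genes most alike in profile to each member with at least 200 UMIs. Other genes, as cluster leaders, class markers and joint-detection or Irx1 partners, were named outside this rule. Gene positions are from the GENCODE annotation of GRCm38. Alternatives changed gates, doublets, depth, weighting, filters and thresholds. Values of some listed genes are not reported here.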

Additional observations from a re-analysis of the deposited data

How the results depend on the processing

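With 1 library per age there were no replicates, and the depth limits Ednrb, Hand1 and the E12.0 receptor and Hand values most, which rest on few UMIs. Of 319 recomputed values, 239 stayed within the main interval or within 1.5 times the main count. The 5 member and class pairs called raised were 4 to 7 under the alternatives. Ednra in crest mesenchyme was gained with gates as written, with 1 UMI more in every gate and at a fold of 1.5, which also added Ece1 in epithelium, and Ednrb in endothelium was lost when a UMI was required in 15% of cells. The 27 pathway gene and class pairs became 41 at a fold of 1.5. With gates as written, 4 members rather than 2 differed between the epithelial cells of the 2 ages, Ednra and Hand2 being added, in a gate of which 1391 E9.5 cells also met the crest gate and 14.5% of those were called doublets. The log2 ratio of Ednrb in Irx1 cells was 3.30 with at least 2 Irx1 UMIs and 2.52 to 3.02 under the other alternatives. Genes found with Hand2 above 1 were 7 in the main count, 12 without thinning and 4 with at least 2 Hand2 UMIs, where Barx1 turned to a log2 ratio of -0.10. Those below 1 were 5 in the main count, 0 without thinning, for which the cause was not tested, and 1 without the 4 clusters, an alternative chosen after seeing the data. No paired analysis was possible because each group is 1 library.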
